A study of Caenorhabditis elegans with 2 samples.

Results

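The regions described here are places of strong HLH-13::GFP chromatin immunoprecipitation (ChIP) signal whose summit lay in front of protein-coding genes on both DNA strands of Caenorhabditis elegans. They were chosen from the pooled list of 30000 candidate regions. The authors' name for that list says that it holds peaks and background, so being listed does not by itself mark a bound site. Candidates of low rank can therefore be background, and a high rank does not by itself mark a bound site either. A region was taken if it was among the 3000 of highest signal value and if its summit lay from 1000 bp upstream to 200 bp downstream of an annotated protein-coding transcript start of at least 1 gene on each strand. Regions within 100 bp of a tRNA, snoRNA, snRNA, miRNA or ncRNA gene were left out, which removed 29 regions. The rule left 203 regions. They are set beside 777 regions that passed the same rank limit in the promoter window of genes on only 1 strand (one-sided promoters), whose signal was lower on the whole, and beside 792 candidates that met the same position rule at a lower signal, below rank 3000 (weaker divergent candidates). All samples came from whole late embryos (3.5 h, obtained by egg bleaching, mixed sex) of strain OP744. This strain carries the transgene wgIs744, in which hlh-13 is tagged with TY1, EGFP and 3xFLAG, together with an unc-119(+) rescue marker, and it carries the mutation unc-119(tm4063). The 2 biological replicates formed 1 group with 1 control library, so no second condition was compared. The transgene is an added copy of the gene, and the cells that carried the tagged protein were not separated from the rest of the embryo.

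HLH-13 belongs to the basic helix-loop-helix (bHLH) proteins and to the branch of this family that includes vertebrate Ptf1a. Proteins of this kind bind DNA as pairs of subunits at E-boxes, short sites written CANNTG, where the inner letters differ between family members. In vertebrates Ptf1a acts in the specification of pancreatic and neural cells. A divergent promoter is a stretch of DNA between the starts of a pair of genes that are transcribed away from each other. The compact genome of C. elegans holds many of these, and genes used in all cells often lie beside them. In nematodes a leader RNA is joined to many transcripts by trans-splicing, so an annotated start is often the joining site and transcription itself can begin further upstream.

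The sequences shown first hold a spaced pair of short words, GCGGC followed after 4 bases of any kind by TTGC, which was found at 20 of the 203 summits. Each sequence runs from 50 bp left to 50 bp right of the summit, read 5′ to 3′ from the RefSeq copy of assembly WBcel235. Capitals mark the words GCGCAC and TTGCAA, the GC box GGGCGG, the E-box CAAGTG and both words of the pair, on either strand. Each region is named by the nearest protein-coding start on the minus strand and then on the plus strand.
ears-2/uncp-18, chrIV:390458-390558, plus strand: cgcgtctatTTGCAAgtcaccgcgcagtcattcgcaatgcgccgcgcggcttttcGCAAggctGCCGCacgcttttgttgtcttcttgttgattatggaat
ecps-1/atx-2, chrIII:10461251-10461351, plus strand: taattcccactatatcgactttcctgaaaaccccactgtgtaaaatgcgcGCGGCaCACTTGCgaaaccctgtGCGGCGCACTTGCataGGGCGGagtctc
mlcd-1/idhg-1, chrIII:4568689-4568789, plus strand: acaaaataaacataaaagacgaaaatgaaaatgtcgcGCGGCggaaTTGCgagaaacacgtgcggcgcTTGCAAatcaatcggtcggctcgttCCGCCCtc
pvf-1/Y39A3CL.7, chrIII:1824615-1824715, plus strand: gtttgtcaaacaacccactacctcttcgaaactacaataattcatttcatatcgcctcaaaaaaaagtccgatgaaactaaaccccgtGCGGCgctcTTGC
The next 5 windows lacked the pair and held the other marked words, which were found more often at these summits than in 1 or both of the sets they were compared with.
K01G5.10/tasp-1, chrIII:10759188-10759288, plus strand: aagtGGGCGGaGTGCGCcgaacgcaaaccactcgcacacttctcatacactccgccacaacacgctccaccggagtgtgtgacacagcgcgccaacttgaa
nmad-1/hach-1, chrIII:5555083-5555183, plus strand: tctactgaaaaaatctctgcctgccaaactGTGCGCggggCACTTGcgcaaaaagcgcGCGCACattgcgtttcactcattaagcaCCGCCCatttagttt
B0495.9/sre-1, chrII:7708700-7708800, plus strand: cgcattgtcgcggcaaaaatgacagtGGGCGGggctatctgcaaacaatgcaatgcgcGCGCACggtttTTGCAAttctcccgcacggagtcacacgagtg
rnf-121/C16C10.4, chrIII:4171142-4171242, plus strand: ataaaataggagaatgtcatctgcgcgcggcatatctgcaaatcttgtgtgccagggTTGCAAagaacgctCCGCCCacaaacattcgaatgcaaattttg
W03C9.5/mex-1, chrII:11967711-11967811, plus strand: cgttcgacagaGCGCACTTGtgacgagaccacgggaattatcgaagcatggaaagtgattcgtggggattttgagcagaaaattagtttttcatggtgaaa
The last 2 windows are among the 15 strongest regions and hold none of these words.
snx-13/snr-1, chrIV:17087578-17087678, plus strand: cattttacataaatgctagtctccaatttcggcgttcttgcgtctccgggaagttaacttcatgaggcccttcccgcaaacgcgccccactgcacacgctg
rpl-20/Y17G9B.5, chrIV:4750014-4750114, plus strand: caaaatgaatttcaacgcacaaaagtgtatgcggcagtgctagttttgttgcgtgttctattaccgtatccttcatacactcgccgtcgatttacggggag

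The 3 strongest regions lay at ears-2 and uncp-18, at K01G5.10 and tasp-1, and at ecps-1 and atx-2. Signal values, which are the authors' measure of enrichment over the control on an unstated scale, were used by the rule and are given as a description with no test. The highest of the 203 had a pooled signal of 329.6, with 165 in replicate 1 and 168 in replicate 2. Its summit lay 40 bp from the start of ears-2, which encodes a mitochondrial glutamyl-tRNA synthetase, and 52 bp from that of uncp-18. The region of K01G5.10 and tasp-1, a threonine aspartase, reached 243 pooled, with 130.2 in replicate 1 and 116 in replicate 2. At ecps-1 and atx-2, which encodes an ataxin-2-related RNA-binding protein, the values were 222 pooled, 107.5 in replicate 1 and 107.7 in replicate 2. Both replicates therefore held high values at the 3 strongest regions.

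At nmad-1 and hach-1, which encodes a 3-hydroxyisobutyryl-CoA hydrolase, the pooled signal was 212, with 100.7 in replicate 1 and 119 in replicate 2. At mlcd-1 and idhg-1, a subunit of mitochondrial isocitrate dehydrogenase, it was 206, with 111.8 in replicate 1 and 85.3 in replicate 2. The region of B0495.9 and the chemoreceptor gene sre-1 had 171 pooled, 94.8 in replicate 1 and 83.9 in replicate 2, and its summit lay 40 bp from B0495.9 but 954 bp from sre-1. At spe-48 and Y51F10.11 the pooled signal was 170.3. At spd-5, which encodes a scaffold protein of the centrosome, and npp-6, a nuclear pore protein, it was 169. The remaining regions of the 15 strongest lay between snx-13 and the spliceosomal Sm protein gene snr-1 (162), rnf-121 and C16C10.4 (162), dnj-29 and the respiratory complex I gene ndua-2 (154), algn-13 and R10D12.13 (144), F56G4.6 and wbp-4 (143), the ribosomal protein gene rps-19 and hsr-9 (134), and rpl-20 and Y17G9B.5 (133).

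Over the 203 regions the pooled signal ran from 52.4 to 329.6 with a median of 67.0. The one-sided promoters had a median of 60.1 and the weaker divergent candidates one of 33.9. The upper quartile was 86.02 in the 203 regions and 69.2 in one-sided promoters, so the comparisons with one-sided promoters below are not matched for signal. The weakest region inside the limit was that of tars-1 and kel-1 (rank 2979, 52.4), and the first outside was that of vdac-1 and R05G6.5 (rank 3003, 52.3). The authors' optimal set of 423 regions (1.41% of all candidates) was the same as pooled ranks 1 to 423, so membership of it is a limit on the signal that chose the regions. Of the 203, 53 (26.1%) were in it, against 70 of 777 one-sided promoters (9.01%). Counted by rank, those 53 made up 12.5% of ranks 1 to 423, and regions that met the position rule made up 8.84% of ranks 424 to 1000, 4.95% of ranks 1001 to 3000, 3.34% of the next ranks to 10000 and 2.79% of ranks 10001 to 30000. One-sided promoters made up 16.5%, 29.3%, 26.9%, 24.9% and 24.0% of the same ranks. The authors' pooled −log10 q-value ran from 0.53 to 2.36 over the 203 regions, with a lower quartile of 0.76 and a median of 1.23. The median was 0.85 in one-sided promoters and 0.144 in weaker divergent candidates. Most of the 203 regions therefore had a q-value above 0.05, so they are regions of high rank and not all are confident binding sites.

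Nearly all of the regions overlapped a listed candidate in each replicate, but their order differed between replicates. An overlap of 1 bp was enough, and the overlapping candidates ranked as low as 24215 in replicate 1 and 26477 in replicate 2. An overlapping candidate was listed in both replicates for 195 of the 203 regions (96.1%), for 95.1% of one-sided promoters and for 44.4% of all candidates. Only 81 regions (39.9%) overlapped one of the 3000 highest candidates in each replicate, against 26.0% of one-sided promoters, 28.4% of the 3000 highest pooled candidates and 3.36% of all candidates. Taken singly, 134 (66.0%) did so in replicate 1, where 55.2% of one-sided promoters did, and 130 (64.04%) in replicate 2, where 53.9% did, each against 11.3% of all candidates, and 20 did so in neither. An excess over all candidates follows from the choice by pooled signal. Replicate 1 signal had a median of 34.8 (quartiles 27.6 and 45.5, highest 165), and replicate 2 signal a median of 36.6 (quartiles 28.1 and 46.5, highest 168). Over the 195 regions listed in both, Pearson's r was 0.72 and Spearman's rho was 0.28. These are descriptions of regions that share 2 libraries and were chosen by their pooled signal.

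**Figure D1:**
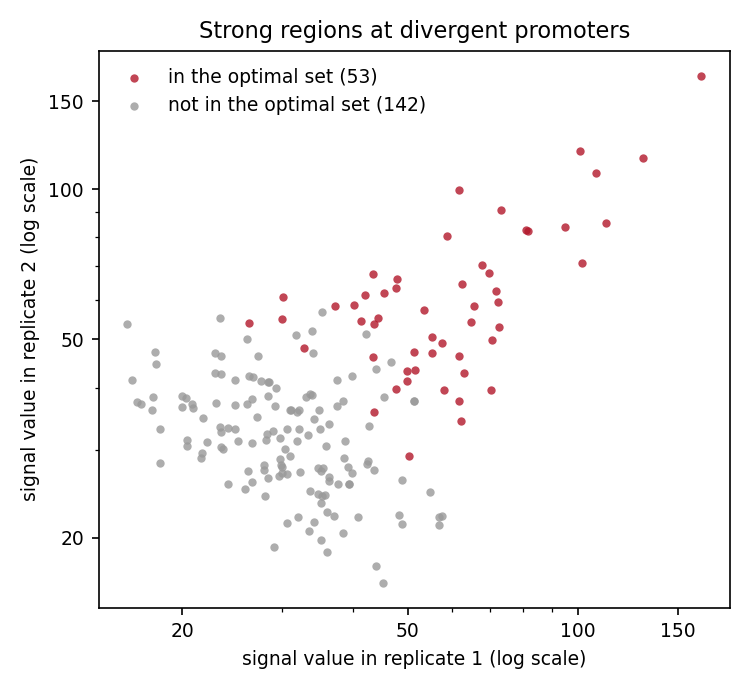
Signal value in replicate 1 (horizontal) and replicate 2 (vertical), both on log axes, for the 195 of 203 regions listed in both replicates; red points are the 53 regions of the optimal set (pooled ranks 1 to 423) and grey points the other 142. The strongest region stands at 165 and 168, and the regions of the optimal set lie towards the upper right of the others.

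The summits lay between the divergent starts more often than those of weaker candidates at the same kind of promoter. A summit was counted as between if a minus-strand start lay to its left and a plus-strand start to its right. This was so for 174 of 203 regions (85.7%, 95% Wilson interval 80.2 to 89.9%) and for 567 of 792 weaker candidates (71.6%, 68.4 to 74.6%). By Fisher's exact test (two-sided) p was 2.06e-05, with an odds ratio of 2.38 (1.55 to 3.77). It was 1.64 with replicate 2 alone and 1.87 with replicate 1 alone. With a promoter window of 500 bp upstream and 100 bp downstream it was 1.77 (Fisher's exact test, p = 0.0482), and with the 1500 highest regions 3.38. Of the weaker candidates, 24 overlapped one of the 203 regions, and without the 49 that lay within 1000 bp of one the odds ratio was 2.28. Regions are not replicates, so all p-values given here describe these lists and say nothing of variation between embryo cultures.

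Distances between the starts are given without a test. Where the summit lay between them, the starts were a median of 584 bp apart (quartiles 397 and 820 bp, range 82 to 1831 bp) around strong regions, against a median of 789 bp (quartiles 512 and 1132 bp) around weaker candidates. The median distance from a strong summit to the nearer start was 131 bp, and to the farther of the 2 named starts 400 bp. In 133 regions both starts lay within 500 bp of the summit. The nearer start was on the minus strand in 102 regions and on the plus strand in 101. Of the 174 summits between starts, 106 (60.9%) lay in the middle 50% of the gap. The summit lay within 150 bp of a start in 117 strong regions (57.6%) and in 449 weaker candidates (56.7%), with an odds ratio of 1.04 (0.752 to 1.44, Fisher's exact test, p = 0.874). With a promoter window of 500 bp upstream and 100 bp downstream that odds ratio was 0.568 (Fisher's exact test, p = 0.0140).

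**Figure D2:**
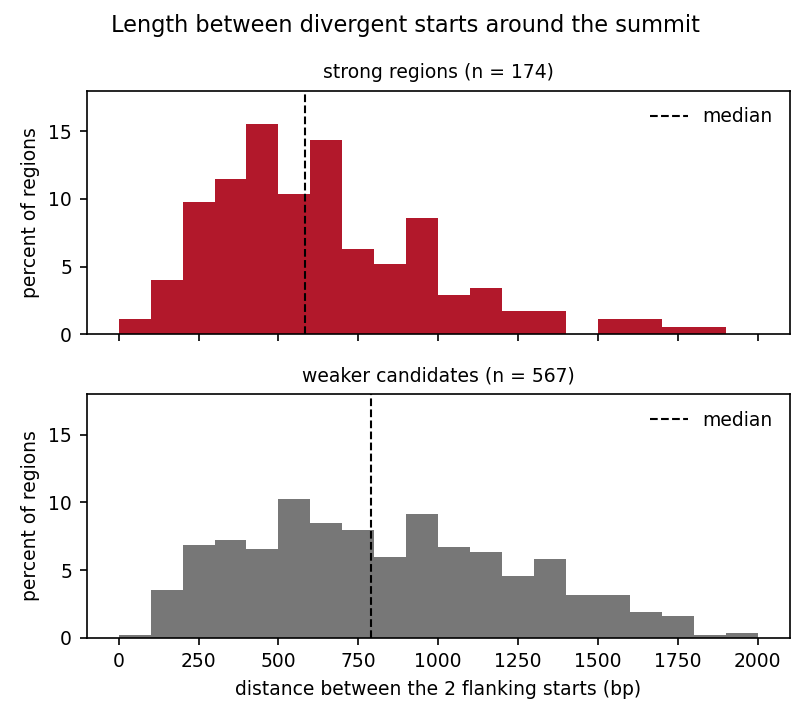
Distance between the divergent starts on each side of the summit (horizontal, bp) against the percent of regions (vertical), for strong regions (top, 174) and weaker candidates (bottom, 567); dashed lines mark medians. The median is 584 bp for strong regions and 789 bp for weaker candidates.

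The place of the summit relative to genes was not tested. The summit was intergenic in 146 strong regions (71.9%), in 54.3% of one-sided promoters and in 52.02% of weaker divergent candidates. It lay in a coding exon in 20 strong regions (9.85%), in 17.1% of one-sided promoters and in 26.0% of weaker candidates. In 190 regions the promoter windows of exactly 2 genes held the summit, and 13 regions had 3 or 4 genes. In all, the windows named 413 genes, 2.07% of 19985 protein-coding genes. The base composition at strong summits (median G+C content 45.5%) was near that of one-sided promoters (46.5%) and above that of weaker candidates (40.6%). All 32-base words within 50 bp of the summit were unique in the genome in 191 regions (94.1%), and 4 regions had fewer than 50% unique words.

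Autosomes held 200 of the 203 regions and the X chromosome held 3, at rab-14 and nipi-3, at C34F6.7 and idh-2, and at sax-1 and R11G1.2. The X held 1.48% of the strong divergent regions, 15.8% of one-sided promoters and 4.04% of weaker divergent candidates. Windows reaching genes on both strands covered 0.723% of the X, against 2.33% of all chromosomes. Per Mb of such window the strong regions numbered 23.4 on X, 55.3 on V, 93.0 on II, 93.0 on IV, 112.2 on I and 118 on III, and weaker candidates 249.8 on X, 253 on V, 341 on II, 303 on IV, 415 on I and 462 on III. No test was made of these densities.

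E-boxes as a whole did not pass the test in any of the comparisons after adjustment. Any E-box (CANNTG, either strand, within 50 bp of the summit) was present in 78 of 203 strong regions (38.4%), in 240 of 777 one-sided promoters (30.9%), in 298 of 792 weaker candidates (37.6%) and in 35% of all candidates. Against weaker candidates the odds ratio was 1.03 (0.742 to 1.44, Fisher's exact test, p = 0.871). Against one-sided promoters it was 1.40 (0.997 to 1.95, Fisher's exact test, p = 0.0436, adjusted p = 0.291 over 20 motifs by Benjamini-Hochberg). Against windows of the same length centred 400 bp to each side, the count was 78 at summits and 62.5 per flank on average (exact matched test, two-sided, p = 0.0645).

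Of the 10 separate E-boxes, CAAGTG was the one that differed in every one of these comparisons. It was present in 21 strong regions (10.3%), in 34 one-sided promoters (4.38%), in 37 weaker candidates (4.67%) and in 4.74% of all candidates. The odds ratio was 2.52 against one-sided promoters (1.35 to 4.59, Fisher's exact test, adjusted p = 0.0384) and 2.35 against weaker candidates (1.28 to 4.24, Fisher's exact test, adjusted p = 0.0295). It was found at 21 summits and at 8 windows per flank (exact matched test, adjusted p = 0.00848), and with replicate 2 alone this call and that against weaker candidates were lost (exact matched test, adjusted p = 0.181, and Fisher's exact test, adjusted p = 0.533). Against one-sided promoters the call was lost with replicate 2 alone (8.33% against 3.79%, Fisher's exact test, adjusted p = 0.151) and with replicate 1 alone (10.3% against 5.15%, Fisher's exact test, adjusted p = 0.242). It was also lost there with a promoter window of 500 bp upstream and 100 bp downstream (adjusted p = 0.295), with no non-coding gene within 250 bp (adjusted p = 0.0620), with motifs sought within 100 bp (adjusted p = 0.4996), at 40 to 50% G+C (adjusted p = 0.0740) and without chromosome X (adjusted p = 0.0515, Fisher's exact test throughout). Against weaker candidates the narrower promoter window (adjusted p = 0.159), the motif window of 100 bp (adjusted p = 0.204) and 40 to 50% G+C (adjusted p = 0.370, Fisher's exact test) ended the call as well. Against flanks the motif window of 100 bp (adjusted p = 0.142), flanks 600 bp away (adjusted p = 0.117) and 40 to 50% G+C (adjusted p = 0.144, exact matched test) did so. CAAGTG was in 16.98% of strong divergent regions and 8.57% of one-sided promoters at ranks 1 to 423, in 9.80% and 1.78% at ranks 424 to 1000, and in 7.07% and 4.65% at ranks 1001 to 3000. In 13 of the 21 strong regions CAAGTG was followed on its other strand by a C (CACTTGC), against 9 of 34 one-sided promoters and 13 of 37 weaker candidates. CAAGTG and the spaced pair shown above were both present in 5 strong regions, 1 one-sided promoter and 0 weaker candidates, so the E-box is not wholly separate from the pair. CAGCTG, in 2.65% of all candidates, differed from flanks (10 summits against 3 per flank, exact matched test, adjusted p = 0.0499), and the call was lost with either replicate alone (exact matched test, adjusted p = 0.0698 with replicate 2, 0.612 with replicate 1) and in 6 other alternatives (exact matched test, adjusted p = 0.112 to 1). In the comparisons with one-sided promoters and with weaker candidates the other E-boxes, CAGCTG included, did not pass.

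Of the 20 motifs the GC box had the lowest adjusted p against weaker candidates. GGGCGG, the site of Sp1-type zinc finger proteins, was present in 27 strong regions (13.3%), in 57 one-sided promoters (7.34%), in 25 weaker candidates (3.16%) and in 3.66% of all candidates. The odds ratio was 4.70 against weaker candidates (2.56 to 8.66, Fisher's exact test, adjusted p = 3.96e-06). Against one-sided promoters it was 1.94 (1.14 to 3.22) and did not pass (Fisher's exact test, adjusted p = 0.107), but it did with the 1500 highest regions (adjusted p = 0.0446) and in unique sequence (adjusted p = 0.0338). Summits held it 27 times and flanks 2.5 times on average (exact matched test, adjusted p = 3.17e-08). At ranks 1 to 423 GGGCGG was in 24.5% of strong divergent regions and 14.3% of one-sided promoters. It was in 13.7% and 7.10% at ranks 424 to 1000, and in 7.07% and 6.51% at ranks 1001 to 3000, given without a test. TGATAA, the site of GATA factors, was less frequent at strong divergent summits than at weaker ones, with 5 regions (2.46%) against 62 (7.83%, Fisher's exact test, adjusted p = 0.0295), and was in 6.6% of all candidates. That call was lost with replicate 2 alone (Fisher's exact test, adjusted p = 0.235), with replicate 1 alone (adjusted p = 0.845), with the 1500 highest regions (adjusted p = 0.257), with the narrower promoter window (adjusted p = 0.159), with no non-coding gene within 250 bp (adjusted p = 0.0609), with the most upstream start of each gene (adjusted p = 0.0841) and among regions of 40 to 50% G+C (4.17% against 3.70%, Fisher's exact test, adjusted p = 1).

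In all, 1 of the 20 motifs passed against one-sided promoters (5% of those tested), 3 against weaker candidates (15%) and 7 against flanks (35%). The flank calls also included GAGAGA, a GA repeat, with 27 summits against 4.5 per flank (exact matched test, adjusted p = 2.33e-06) and 8.66% of all candidates. CTGCGTCT, the M1 motif, was at 6 summits against 0 flanks (exact matched test, adjusted p = 0.00549) and in 1.27% of all candidates. TGATAA was at 5 against 22.5 (exact matched test, adjusted p = 0.00085), and TATAAA, the core of a TATA box, at 8 against 27.5 (exact matched test, adjusted p = 0.00085) and in 6.84% of all candidates. With replicate 2 alone the call of CTGCGTCT (exact matched test, adjusted p = 0.0786) and that of the TATA box (adjusted p = 0.184) were lost, and with replicate 1 alone those of the GATA site (adjusted p = 0.0839) and the GA repeat (adjusted p = 0.0594). With flanks 600 bp away the calls of CTGCGTCT (exact matched test, adjusted p = 0.228) and the TATA box (adjusted p = 0.117) were lost, at 40 to 50% G+C those of CTGCGTCT and the GATA site (adjusted p = 0.144 each) and the TATA box (adjusted p = 0.320), and with a motif window of 100 bp that of CTGCGTCT (adjusted p = 0.0521). The GA repeat did not pass against one-sided promoters (13.3% against 15.7%) or weaker candidates (13.3% against 9.85%). Flanks often reached past the starts into genes, and their base composition was not matched. The B box of tRNA genes was in none of the 203 regions, for which the 95% Wilson interval reaches 1.86%, and in 0.787% of all candidates.

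**Figure D3:**
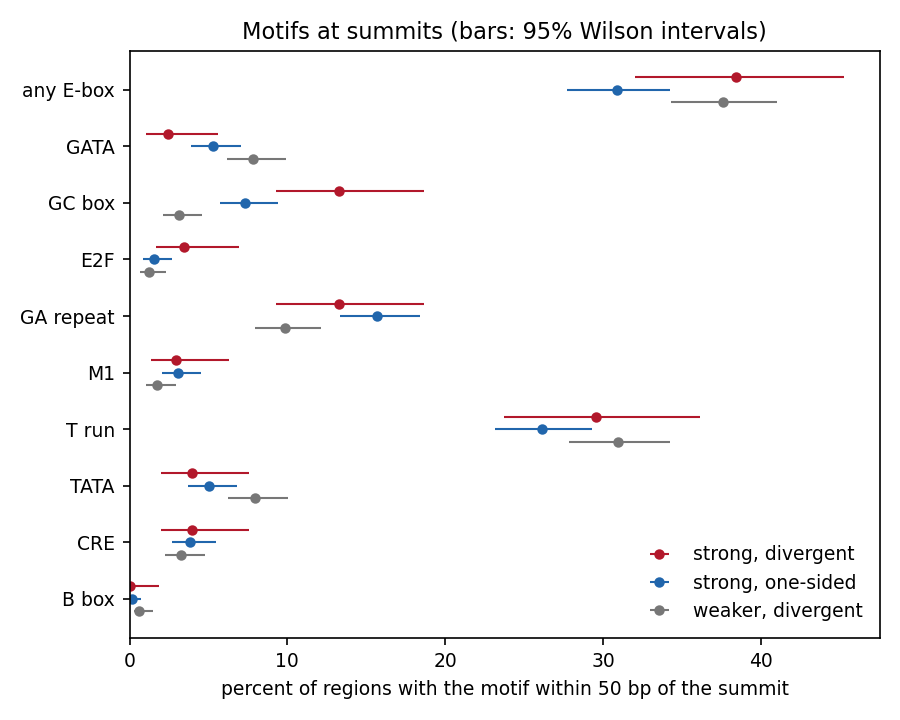
Percent of regions with each motif within 50 bp of the summit (horizontal), by motif (vertical), for strong divergent regions (red, 203), strong one-sided promoters (blue, 777) and weaker divergent candidates (grey, 792); bars are 95% Wilson intervals. The GC box is at 13.3%, 7.34% and 3.16% in that order, while any E-box is at 38.4%, 30.9% and 37.6%.

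All words of 6 bases were then compared, with reverse complements joined. Against one-sided promoters 20 words passed at an adjusted p under 0.05 (0.962% of those tested), 19 of them more frequent in strong divergent regions. Against weaker candidates 55 passed (2.64%), 53 of them more frequent. Both counts moved widely with the processing. Among regions of 40 to 50% G+C, 5 words passed against one-sided promoters and 9 against weaker candidates, with the narrower promoter window 0 and 13, with replicate 2 alone 8 and 25, and with the 1500 highest regions 3 passed against one-sided promoters. The leading word in both was GCGCAC. It was present in 45 strong divergent regions (22.2%), in 43 one-sided promoters (5.53%), in 31 weaker candidates (3.91%) and in 2.77% of all candidates. The odds ratio was 4.85 against one-sided promoters (3.01 to 7.83, Fisher's exact test, adjusted p = 4.61e-08) and 6.97 against weaker candidates (4.17 to 11.8, Fisher's exact test, adjusted p = 1.80e-11). Of the windows printed above, those of K01G5.10/tasp-1, ecps-1/atx-2, nmad-1/hach-1, B0495.9/sre-1 and W03C9.5/mex-1 hold it.

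The difference in GCGCAC was present with each replicate alone. With replicate 2 alone it was in 19.6% of strong divergent regions and in 4.77% of one-sided promoters (Fisher's exact test, adjusted p = 1.00e-05), and with replicate 1 alone in 16.9% of strong divergent regions and 5.15% of one-sided promoters (Fisher's exact test, adjusted p = 0.000913). Among regions of 40 to 50% G+C it was in 21.9% of strong divergent regions, 5.93% of one-sided promoters and 4.04% of weaker candidates (Fisher's exact test, adjusted p = 0.00805 and 0.00125). With the narrower promoter window it was in 22.05% of strong divergent regions and 8.47% of one-sided promoters and did not pass (Fisher's exact test, adjusted p = 0.109). By rank, 39.6% of strong divergent regions and 17.1% of one-sided promoters held it at ranks 1 to 423, 15.7% and 5.33% at ranks 424 to 1000, and 16.2% and 4.09% at ranks 1001 to 3000, given without a test. TTGCAA, in 31 strong divergent regions (15.3%) and 42 one-sided promoters (5.41%), and in 4.66% of all candidates, had an odds ratio of 3.15 (1.86 to 5.30, Fisher's exact test, adjusted p = 0.00742), and its call was lost with the narrower window (adjusted p = 0.365) and among regions of 40 to 50% G+C (adjusted p = 0.174). GCCGCA, in 30 (14.8%) and 40 (5.15%), and in 3.02% of all candidates, had one of 3.19 (1.86 to 5.42, Fisher's exact test, adjusted p = 0.00742). The call of GCCGCA was lost with the 1500 highest regions (Fisher's exact test, adjusted p = 0.176), with the narrower window (odds ratio 1.99, adjusted p = 0.727) and among regions of 40 to 50% G+C (adjusted p = 0.337). At ranks 1001 to 3000 TTGCAA was in 4.04% of strong divergent regions and 4.09% of one-sided promoters, and GCCGCA in 8.08% and 3.16%. The word lower in strong divergent regions than in one-sided promoters was ACCACC. It was in 3 regions (1.48%) against 63 (8.11%, Fisher's exact test, adjusted p = 0.0306). Its share over all candidates was not counted, and it was not followed through the alternatives.

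Several of these words overlapped in the longer arrangement shown at the start, GCGGC and TTGC with 4 bases between them, which was noticed after these words had been compared and so was given no test. It was present in 20 strong divergent regions (9.85%), in 15 one-sided promoters (1.93%), in 1 weaker candidate (0.126%) and in 0.263% of all candidates. One flank of 203 on the left held it and none on the right did. The words stood at a start-to-start distance of 9 bp in these 20 regions, of 8 bp in 3 and of 10 bp in none. The words stood 31 bp apart in 11 regions, some of which can be among the 20, against 4 regions at 30 bp and 3 at 32 bp. The window of ecps-1/atx-2 holds the pair at 2 places.

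The pair was frequent near the top of the ranked list, which is a description because signal chose the regions. Of the 50 strongest regions 14 had it, and of the 50 weakest 1 did. The median signal was 103 in the 20 regions with the pair and 64.4 in the 183 without it, and 14 of the 20 were in the optimal set. At ranks 1 to 423 it was in 26.4% of strong divergent regions and 14.3% of one-sided promoters, at ranks 424 to 1000 in 9.80% and 1.18%, and at ranks 1001 to 3000 in 1.01% and 0.558%. Among the other regions with the pair were those at mig-22 and mtss-1, gei-6 and krr-1, dvc-1 and ima-1, hsp-60, erfa-3 and math-33, and haf-6 and smg-2. The genome held 825 copies, of which 22 were within 50 bp of the 203 summits and 40 (4.85%) within 50 bp of the 3000 strongest summits. The windows at those 3000 summits make up 0.302% of the genome. Most copies, then, lay outside the strong regions.

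**Figure D4:**
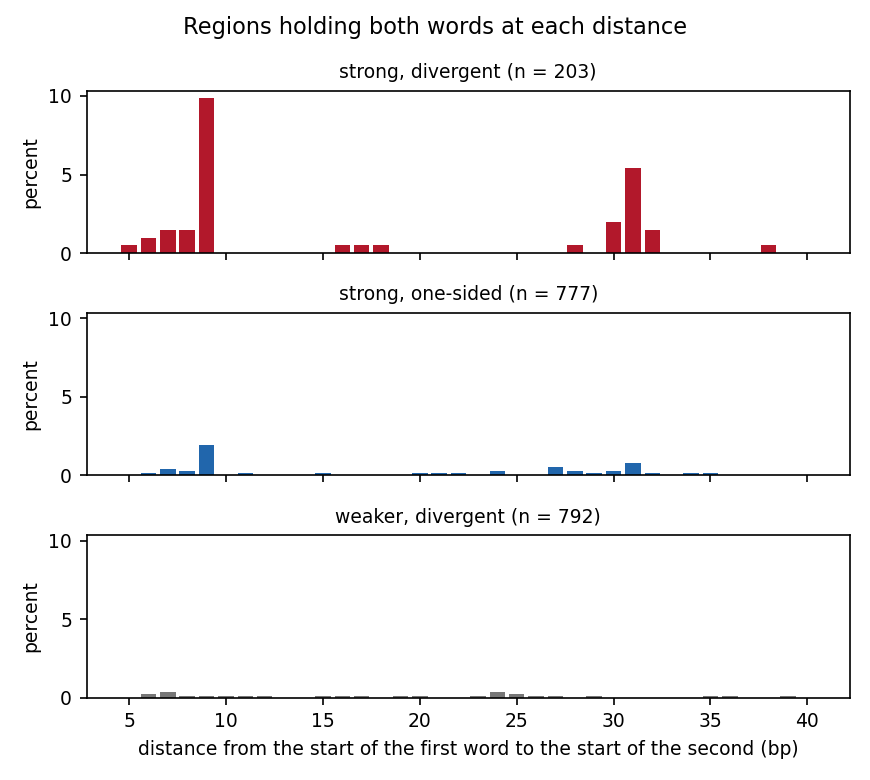
Percent of regions (vertical) in which GCGGC and TTGC occur in this order on 1 strand at each start-to-start distance in bp (horizontal), for strong divergent regions (top, 203), one-sided promoters (middle, 777) and weaker divergent candidates (bottom, 792). The peaks at 9 bp (9.85%) and 31 bp (5.42%) in the top panel are 1.93% and 0.772% in the middle panel and 0.126% and 0% in the bottom panel.

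Among the gene lists, every list of general cell function except the RNA exosome and decay list had a larger share of genes with a strong divergent region than all genes, and no list of cell-type or developmental genes did. Lists were formed by gene symbol, and counts are given beside those over all 19985 protein-coding genes, of which 2.07% had a strong divergent region and 8.73% any divergent candidate. Of genes with any divergent candidate 23.7% had a strong one. On that basis the general lists ran from 62.5% (5 of 8) for RNA polymerase, TAF and Mediator to values close to that of all genes. Chromatin regulators were at 55.6% (10 of 18), splicing factors at 37.5% (9 of 24) and cytosolic ribosomal proteins at 36.7% (11 of 30). Heat shock and chaperonin genes were at 23.5% (4 of 17), and the proteasome at 23.1% (3 of 13). Ubiquitin ligases and conjugases were at 23.1% (3 of 13) and tRNA synthetases at 22.2% (2 of 9). The RNA exosome and decay list was at 0%. On the same basis body wall muscle was at 100% (1 of 1), the zinc finger list at 50% (1 of 2), and nuclear hormone receptors and collagens at 25% (1 of 4 each). Chemoreceptors were at 6.82% (3 of 44), and the bHLH, homeobox, neuropeptide and pan-neuronal lists at 0%. Most of these lists had very few genes with any divergent candidate, and on this basis the general and cell-type lists did not separate throughout. No enrichment test was made, and genes with a divergent neighbour are themselves not an even draw of all genes. The lists are also not independent of each other. The same region often counts in different general lists, as at snr-1 and snx-13, lin-35 and vps-51, ndua-2 and dnj-29, and rpl-12 and lin-54.

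In the lists for protein synthesis 6.45% to 13.95% of the genes had such a region. Of 82 cytosolic ribosomal protein genes 11 (13.4%) had a strong divergent region and 30 had any divergent candidate. The strongest were at rps-19 (134), at rpl-20 (133) and at rps-23 (125), all in the optimal set. Of 70 mitochondrial ribosomal protein genes 6 (8.57%) had one, led by mrpl-12 (88.8) and mrps-35 (84.4), and of 43 translation factor genes 6 (13.95%), led by iff-2 (83.5). At iff-2, whose start lay 14 bp from the summit, the replicates gave 23.3 in replicate 1 and 55.2 in replicate 2. Of 31 aminoacyl-tRNA synthetase genes 2 had one, ears-2 with the highest value of all and tars-1 with the lowest.

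Lists of genes acting on RNA and in the nucleus come next. Splicing factors had 9 of 55 genes (16.4%), led by snr-1 (162), prp-19 (114) and prp-40 (82.7). Among these 9 genes, rsp-1 and rsp-2 share a region. Nuclear pore genes had 5 of 26 (19.2%), led by npp-6 (169), npp-12 (104.3) and npp-14 (91.6). Chromatin regulators had 10 of 98 (10.2%), among them lin-35, the C. elegans retinoblastoma protein (125), the histone demethylase gene jmjd-1.2 (96.3) and lin-54 (87.9). The RNA polymerase, TAF and Mediator list had 5 of 64 (7.81%), led by mdt-19 (94.4). All 5 were Mediator (mdt) genes. At mdt-19 the summit lay 814 bp from its start and 205 bp from that of apb-1. Histones had 4 of 72, at his-59 and his-60 (67.0), which share a region, and at his-62 (55.2) with its neighbour. The cell cycle list had 5 of 69 (7.25%). Its highest value was at cdk-9 (84.8), which the list took in by its symbol and which encodes a kinase of transcription elongation, and next came emb-27 (64.4), a subunit of the anaphase-promoting complex. Kinetochore and condensin genes had 3 of 29, led by knl-3 (117). The RNA exosome and decay list had 0 of 28, with 3 genes at any divergent candidate.

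Genes of mitochondria, traffic and protein turnover followed. Respiratory chain genes had 6 of 71 (8.45%), led by ndua-2 (154), with cox-6B and nduc-2 (63.6) sharing a region. Membrane traffic genes had 11 of 133 (8.27%), led by snx-13 (162), rab-7 (127) and vps-51 (125). The regions of snx-13 and vps-51 are the same as those of snr-1 and lin-35 in the lists above. Heat shock and chaperonin genes had 4 of 61 (6.56%), with dnj-29 (154), hsp-60 (98.7) and hsp-90 (73.9). The proteasome had 3 of 33 (9.09%), led by rpn-7 (63.1), and ubiquitin ligases and conjugases 3 of 63 (4.76%), led by uba-5 (94.4), which the list also took in by its symbol and which encodes an activating enzyme of a ubiquitin-like protein.

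Genes of particular cell types and of developmental control were near or below the share of all genes. No strong divergent region lay at any of 39 bHLH genes, 85 homeobox genes, 145 neuropeptide genes or 24 pan-neuronal genes, of which 3, 1, 3 and 1 had any divergent candidate. Nuclear hormone receptors had 1 of 274, nhr-142 (83.7), and the zinc finger list 1 of 50, egrh-2 (68.3). Collagens had 1 of 175, col-71 (70.2), and the body wall muscle list 1 of 50, mlc-5 (69.2), which was taken in by its symbol and encodes a light chain of non-muscle myosin. Chemoreceptors had 3 of 1310 (0.229%), among them sre-1, which shares its region with B0495.9 (171), and sri-5, which shares its region with rsr-1 (85.9). Because a divergent region belongs to genes on both strands, these values do not say which of the neighbours a region is tied to.

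**Figure D5:**
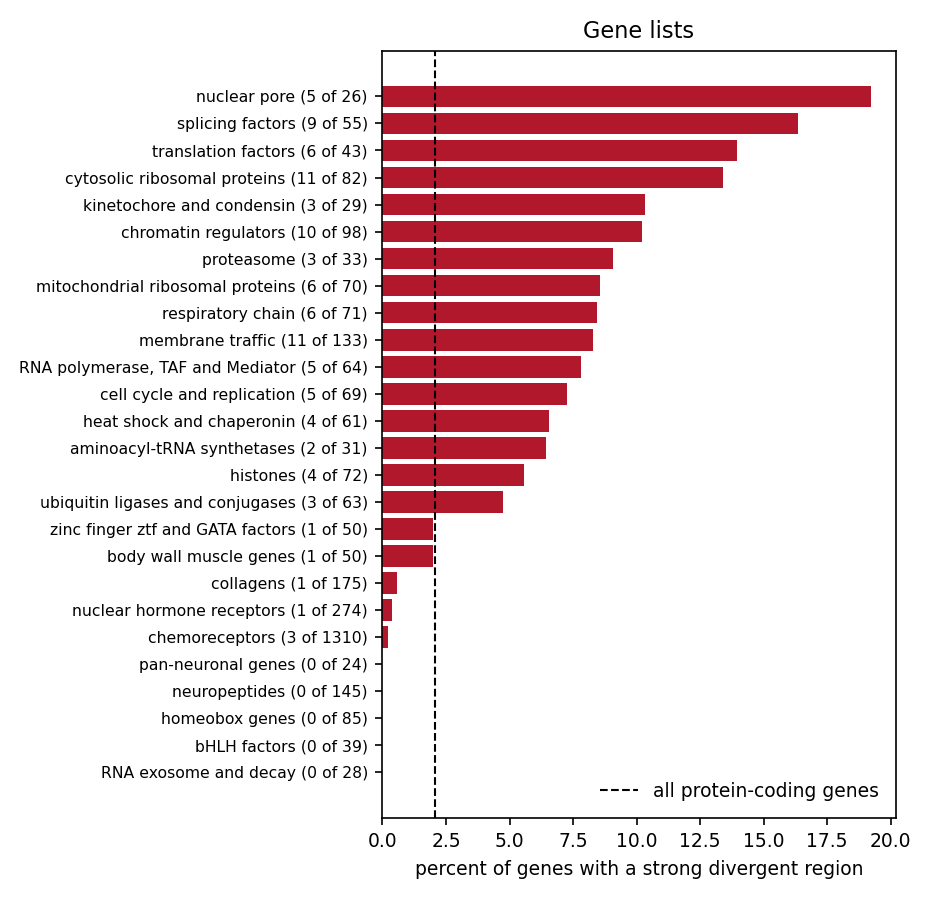
Percent of the genes of each list that had a strong divergent region (bars, horizontal axis), with the count of genes and the size of the list in brackets; the dashed line is the 2.07% of all protein-coding genes. The nuclear pore list is highest at 19.2%, and 5 lists are at 0%.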

How the data were processed

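HLH-13::GFP ChIP-seq was done on 2 biological replicates of late embryos with 1 control library, per the labels' protocols, with chromatin sonicated to 200 to 800 bp. Signal values per region, the authors' measure of enrichment, and −log10 q-values were used as deposited by the authors on assembly ce11. The sources used here name no aligner, peak caller or signal scale. No read counts are listed, so read depth is unknown, and Wilson intervals reflect only how many regions were counted. The members and lists were chosen with earlier results of these data known, and the patterns of the chemoreceptor, respiratory chain and muscle lists were corrected after their counts had been seen. Genes came from Ensembl release 115. Summits were assigned to all annotated protein-coding starts. Pooled signal chose the regions, and q-values and replicate values come from the same reads, so all of these were described with no test. Position and sequence were compared by two-sided Fisher's exact test with conditional odds ratios and 95% intervals. Sequence was compared with flanks by an exact test conditional on the number of a region's 3 windows with the motif. The p-values of motifs and of words were adjusted by Benjamini-Hochberg within each comparison, and those for position were not adjusted. Python 3.11.15, pandas 2.3.3, numpy 2.4.6 and scipy 1.17.1 were used. The motif and word scans were tested on simulated data in which both sets had the same base composition. That test does not cover sets that differ in G+C content, as the strong regions and weaker candidates do. Genes named are the nearest start on each strand at the 15 strongest regions and up to 3 genes per list; other genes were named after their values were seen. Alternatives covered the number of top regions, the promoter window, the non-coding distance, annotated starts, motif window, flank distance, unique sequence and each replicate alone, and, added after seeing the data, G+C content, chromosome X and distance from the strong regions.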

Additional observations from a re-analysis of the deposited data

How the results depend on the processing

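Over all alternatives, 58 values were classed as the same, 24 counts or shares moved and 5 reversed. For tested values, the same meant an unchanged direction and side of the threshold. For counts it meant only a limited change in size, such as 203 regions as reported and 136 with the 1500 highest. The E-box values here are judged by unadjusted p under 0.05. By that measure any E-box against flanks, which had not passed, did so in 3 alternatives, and any E-box against one-sided promoters, at p = 0.0436 (Fisher's exact test) as reported, missed it in 7. After adjustment it passed in none (lowest adjusted p = 0.0587, Fisher's exact test, with the 1500 highest regions). With the 1500 highest regions, 3 words and 2 motifs passed against one-sided promoters, the E-box odds ratio there was 1.77 (exact test, p = 0.0088), and E-boxes exceeded flanks 1.37 times (exact test, p = 0.0307). With the window of 500 bp upstream and 100 bp downstream there were 127 regions; against one-sided promoters 0 words and 0 motifs passed and the E-box odds ratio was 1.32 (exact test, p = 0.179), against weaker candidates 13 words and 1 motif passed, and the odds ratio for a summit within 150 bp of a start was 0.568. That last odds ratio was 0.922 with the 1500 highest regions and 0.913 to 0.962 with 1 replicate left out. Leaving out non-coding genes within 250 bp gave 0 motifs and an E-box odds ratio of 1.37 (exact test, p = 0.0610) against one-sided promoters. A motif window of 100 bp gave E-box odds ratios of 1.14 (exact test, p = 0.431) against one-sided promoters and 0.969 against weaker candidates. Unique sequence gave 2 motifs and an odds ratio of 1.38 (exact test, p = 0.0574) against one-sided promoters, and an excess over flanks of 1.30 times (exact test, p = 0.0366). With G+C content of 40 to 50%, 5 words, 0 motifs and an E-box odds ratio of 1.51 (exact test, p = 0.0882) were found against one-sided promoters, and 9 words and 1 motif against weaker candidates; without chromosome X 0 motifs passed against one-sided promoters and the E-box odds ratio was 1.42 (exact test, p = 0.0386). Flanks 600 bp away left 3 motifs. Requiring 50% of a region to be covered lowered recovery in both replicates to 92.1%, and the optimal set alone left 53 regions.

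With 1 replicate left out, 8 to 21 words passed against one-sided promoters and 25 to 42 against weaker candidates, 0 motifs against one-sided promoters, 1 to 3 against weaker candidates and 3 to 4 against flanks, and the E-box odds ratio against one-sided promoters was 1.33 to 1.36 and its excess over flanks 1.16 to 1.32 times. The causes of these changes were not tested. Fewer regions enter several alternatives by construction. No paired analysis was possible because the 2 replicates form 1 group. Without read counts, counting error in each region's signal could not be given.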
